A study of Mus musculus with 8 samples.

Results

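The 5 *Irs2*-null islet libraries of the study were compared as a single set with its 3 Control libraries, to ask which genes stood apart from Control whenever *Irs2* was absent, whether or not *Cdk4* carried the R24C change. Control (replicates 1, 3 and 4) carried *Irs2*+/+ and *Cdk4* WT/WT. The *Irs2*-null set joined the Diabetic genotype, which is *Irs2*-/- with *Cdk4* WT/WT (replicates 1, 2 and 3), and the Rescue genotype, which is *Irs2*-/- with *Cdk4* R24C/R24C (replicates 1 and 2). All 8 libraries of the series were used. Every library was polyA RNA of hand-picked, flash-frozen whole islets of adult male mice. Both alleles were present in the whole body, not in β cells alone, and the mice were littermates over several litters on a C57BL/6N background without extensive backcrossing. No library of *Irs2*+/+;*Cdk4*-R24C/R24C islets was analysed here, so what R24C does by itself cannot be told apart from what it does without *Irs2*. The sources do not say whether a library is 1 mouse or a pool, so each p-value measures only the spread between libraries.

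Genes with at least 1 RPKM, a read density corrected for transcript length and library depth, in at least 2 of the 8 libraries were used, 12594 of 24123 in the matrix. Their values were put on the log2(RPKM + 1) scale, on which the added 1 pulls the change of low genes toward 0. A gene was kept as a member when its 5 *Irs2*-null values all lay above, or all below, its 3 Control values. There were 612 such genes above Control, 4.86% of those tested, and 1141 below, 9.06%. The other genes overlapped with Control or lay on both sides of it.

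IRS2 is an adaptor that binds the activated insulin and IGF1 receptors and passes their signal to PI3 kinase and AKT, which keeps FOXO transcription factors out of the nucleus. In the β cell this route is known for sustaining cell number and a mature, glucose-responsive state, and mice without *Irs2* become diabetic. CDK4 drives cells from G1 into S phase, and the R24C form resists the INK4 inhibitors.

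Between 10290000 and 14316000 reads fell in genes in each library, as recovered from the steps of the RPKM values. Hormone genes of the islet were present in every library. *Ins2* made up 14.86% to 25.74% of all RPKM in each, and *Ins1*, *Iapp* and *Gcg* were abundant in all 8. Other cells were present in unequal amounts. The summed level of the 22 tested lymphocyte markers was 7.03 to 30.6 RPKM in Control, 6.89 to 204 in Diabetic and 676 to 870 in Rescue. The mean level of 22 nuclear-retained RNAs split the libraries within genotypes, with Control 4, Diabetic 2 and Diabetic 3 between −1.34 and −1.23 on the centred log2 scale and the other 5 libraries between 0.57 and 0.97.

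*Irs2* itself (chromosome 8, 10984681 to 11008458 of GRCm38) is not among the members. It was 5.14, 10.96 and 6.74 RPKM in Control, 36.3, 31.6 and 21.98 in Diabetic and 7.15 and 16.3 in Rescue. Diabetic was the highest, Rescue 1 lay among the Control values and Rescue 2 above them. For *Irs2*, the *Irs2*-null minus Control difference was 1.33 (SE 0.47, limma adjusted p = 0.251), and Rescue minus Diabetic was −1.35 (interval −2.22 to −0.48, limma adjusted p = 0.0297). Reads of the whole transcript enter this value, so it is no check of the null allele, and the genotypes are taken from the labels. *Cdk4* (chromosome 10) was 24.2 to 42.4 RPKM in Control and 18.0 to 41.5 in the *Irs2*-null libraries, and the ranges overlapped.

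Promoters of 4 genes named in the results are shown as a description: *Irs2*, whose locus was targeted, *Sst* and *Cartpt*, which moved in opposite directions, and *Parm1*, which rose. Each is the 250 bases before the RefSeq start on GRCm38.p6, 5′ to 3′ on the strand of the gene. Capitals mark the letters of a searched motif: the cAMP response element TGACGTCA, the insulin response sequence CAAAACAA or its reverse TTGTTTTG, and the E-box CACGTG. In *Irs2* the capitals are an E-box followed directly by an insulin response sequence.
Irs2, chr8:11008930-11009179, minus strand: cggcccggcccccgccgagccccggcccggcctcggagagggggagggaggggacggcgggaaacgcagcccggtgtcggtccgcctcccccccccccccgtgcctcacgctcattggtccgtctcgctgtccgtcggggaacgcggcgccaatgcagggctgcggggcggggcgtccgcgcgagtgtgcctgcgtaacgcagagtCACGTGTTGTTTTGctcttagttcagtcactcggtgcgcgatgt
Sst, chr16:23890845-23891094, minus strand: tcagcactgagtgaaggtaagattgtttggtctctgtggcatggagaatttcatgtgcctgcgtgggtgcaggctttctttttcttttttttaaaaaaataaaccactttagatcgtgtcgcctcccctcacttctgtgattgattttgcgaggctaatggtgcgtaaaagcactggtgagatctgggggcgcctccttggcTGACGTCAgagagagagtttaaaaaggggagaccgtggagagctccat
Cartpt, chr13:99900684-99900933, minus strand: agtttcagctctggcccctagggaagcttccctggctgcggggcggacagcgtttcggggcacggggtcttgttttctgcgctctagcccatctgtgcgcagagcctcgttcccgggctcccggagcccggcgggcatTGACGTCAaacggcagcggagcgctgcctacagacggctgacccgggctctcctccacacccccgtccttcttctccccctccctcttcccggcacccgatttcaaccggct
Parm1, chr5:91517450-91517699, plus strand: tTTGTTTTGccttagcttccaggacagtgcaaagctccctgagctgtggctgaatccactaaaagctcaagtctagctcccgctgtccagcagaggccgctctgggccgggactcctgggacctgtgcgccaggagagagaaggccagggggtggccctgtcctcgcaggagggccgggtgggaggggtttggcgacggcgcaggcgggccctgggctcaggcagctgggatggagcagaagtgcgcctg

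Limma with 1 mean for the *Irs2*-null libraries and 1 for Control called 5 genes higher, 0.0397% of those tested, and 17 lower, 0.135%, at an adjusted p under 0.05. All 22 are members, which is no second result, since the test and the rule use the same values. At an unadjusted p under 0.05 there were 829 higher and 1134 lower. The 5 that rose were *Tubb6*, *Cartpt*, *Parm1*, *AI506816* and *AW011738*. The 17 that fell were *Sst*, *Gad1*, *Kcnj12*, *Angptl7*, *Hspa12a*, *9230112J17Rik*, *Agt*, *Slc12a7*, *Sfrp5*, *Slc2a2*, *Fkbp1b*, *Pxylp1*, *Vdr*, *Ky*, *Ica1l*, *Ggact* and *Lifr*.

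These calls needed nearly all the libraries: 0 higher and 0 or 1 lower genes were called by limma when any single Control library, Diabetic 1 or Diabetic 2 was left out, with 367 to 878 higher and 635 to 1075 lower at an unadjusted p under 0.05. The fit with a mean for each of the 3 genotypes, which takes the difference between Diabetic and Rescue out of the spread, called 1625 higher and 676 lower, 18.3% of all genes. Among its calls were 462 of the 612 members above and 602 of the 1141 members below, and nothing is read from these counts, since the members were chosen on the same values.

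Of the genes that fell, *Slc2a2* encodes GLUT2, the glucose transporter of the mouse β cell. Its level was 108, 164 and 221 RPKM in Control, 30.9, 40.6 and 35.4 in Diabetic and 23.3 and 54.5 in Rescue. All 5 *Irs2*-null libraries were low, and the nearest of them, Rescue 2, was far under the lowest Control. The Control mean was 4.45 times the *Irs2*-null mean, and the log2 difference was −2.12 (95% interval −2.80 to −1.44, limma adjusted p = 0.0462). Rescue minus Diabetic was 0.01 for *Slc2a2* (interval −0.85 to 0.87, limma adjusted p = 0.985), so that a sizeable difference between them in either direction was within the interval.

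*Gad1*, the enzyme that makes the inhibitory transmitter GABA from glutamate, was 23.5, 32.9 and 20.7 RPKM in Control, 1.602, 3.19 and 6.33 in Diabetic and 5.62 and 5.46 in Rescue. Its Control mean was 5.78 times the *Irs2*-null mean (log2 difference −2.36, SE 0.34, limma adjusted p = 0.0462). Somatostatin, the δ cell hormone that restrains both insulin and glucagon release, showed the widest gap of any member below Control. *Sst* was 2804, 4302 and 3689 RPKM in Control, 733, 770 and 904 in Diabetic and 506 and 308 in Rescue. The Rescue libraries lay under the Diabetic ones, with a Rescue minus Diabetic difference of −1.02 (interval −1.61 to −0.42, limma adjusted p = 0.0213), and the Control mean was 5.59 times the mean of all 5 (log2 difference −2.55, SE 0.36, adjusted p = 0.0462). In whole islets, fewer δ cells and less *Sst* RNA per δ cell cannot be told apart, and the same holds for every gene below that marks a cell type.

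The vitamin D receptor *Vdr* was 46.7, 61.8 and 83.1 RPKM in Control and kept a narrow range in the other libraries, with 20.1, 21.7 and 25.2 in Diabetic and 22.4 and 24.7 in Rescue. The 5 *Irs2*-null values lay close together and under every Control. The log2 difference was −1.41 (SE 0.19, limma adjusted p = 0.0392) and Rescue minus Diabetic was 0.08 (interval −0.44 to 0.60). *Fkbp1b*, which binds and steadies the ryanodine receptor calcium channel, was 71.2, 69.8 and 72.9 RPKM in Control, 23.1, 25.2 and 35.9 in Diabetic and 33.3 and 34.1 in Rescue. It fell by 1.23 on the log2 scale (SE 0.17, limma adjusted p = 0.0462), with Control values that hardly differed from each other.

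*Angptl7*, a secreted angiopoietin-like protein, had the smallest adjusted p of all genes. It was 6.26, 5.49 and 6.51 RPKM in Control, 1.01, 1.25 and 1.41 in Diabetic and 0.919 and 0.993 in Rescue (log2 difference −1.75, SE 0.15, limma adjusted p = 0.0125). *Kcnj12*, an inward rectifier potassium channel, was 4.42 to 5.15 RPKM in Control and 0.263 to 0.992 in the *Irs2*-null libraries, and its Control mean was 8.40 times theirs. *Hspa12a*, of the HSP70 family, was 8.07 to 9.31 RPKM in Control and 1.95 to 3.21 without *Irs2*. *Agt*, the angiotensin precursor, was 15.8 to 18.1 RPKM in Control and 4.24 to 7.34 without *Irs2*. *Sfrp5*, a secreted WNT inhibitor, was 38.9 to 65.5 against 10.02 to 19.3, and *Slc12a7*, a potassium and chloride cotransporter, was 10.03 to 11.5 against 2.67 to 4.55. *Lifr*, the receptor of leukemia inhibitory factor, was 14.97 to 16.7 against 5.71 to 9.33. The remaining called losses, *9230112J17Rik*, *Pxylp1*, *Ky*, *Ica1l* and *Ggact*, had log2 differences of −1.35, −1.25, −1.16, −1.04 and −0.80. *Kcnf1*, a silent potassium channel subunit, and *Sult1c2*, a sulfotransferase, had gaps among the 15 widest without passing the test (limma adjusted p = 0.06 and 0.0501).

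Among the genes above Control, *Cartpt* encodes the CART neuropeptide, which islet endocrine cells and neurons of rodents make. It was 0.156, 0.123 and 0.330 RPKM in Control, 4.93, 3.71 and 4.33 in Diabetic and 2.14 and 2.45 in Rescue. The gene was close to silent in Control and above 2 RPKM in each *Irs2*-null library, with a log2 difference of 1.87 (SE 0.24, limma adjusted p = 0.0353). Rescue lay under Diabetic by 0.69 on this scale (interval −1.07 to −0.31, limma adjusted p = 0.0172), while staying above every Control. *Cartpt* and *Sst* were the 2 of the 22 called genes for which Rescue and Diabetic differed, both lower in Rescue.

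*Parm1*, a mucin-like membrane protein, was 1.12, 2.12 and 1.51 RPKM in Control, 6.52, 5.74 and 5.32 in Diabetic and 6.96 and 6.63 in Rescue. It rose by 1.498 on the log2 scale (SE 0.17, limma adjusted p = 0.0286), and the 2 Rescue values were the highest of all. *Tubb6*, a β tubulin, was 1.56 to 2.41 RPKM in Control, 8.70 to 12.7 in Diabetic and 7.32 to 7.43 in Rescue, and had the widest gap of any member above Control (log2 difference 1.74, SE 0.20, limma adjusted p = 0.0286). The transcripts *AI506816* and *AW011738*, for which no role is given here, went from 3.69 to 6.15 RPKM in Control to 13.2 to 20.9, and from 0.382 to 0.645 RPKM to 1.96 to 2.76.

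The plot of levels by library shows genes above Control whose Rescue values lay between those of Control and Diabetic. Of the 15 genes with the widest gaps above Control, Rescue had the lower mean in 11, and limma called 6 of them in that direction. These were *Cartpt*, *C1qtnf1*, *6330403K07Rik*, *3930402G23Rik*, *Creld2* and *Slc38a5*. *C1qtnf1*, a secreted C1q and TNF related protein, was 0.801 to 1.63 RPKM in Control, 26.0, 21.0 and 9.24 in Diabetic and 5.20 and 5.13 in Rescue. *Slc38a5*, an amino acid transporter known in mouse α cells, was 4.26 to 4.37 in Control, 25.4 to 34.3 in Diabetic and 7.52 and 10.9 in Rescue. For both, Rescue stayed apart from Control at a level well under Diabetic. *Oat* and *Fam107b* went the other way and were called higher in Rescue. Of the 15 widest gaps below Control only *Sst* and *4931431B13Rik* were called between the null genotypes.

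**Figure D1:**
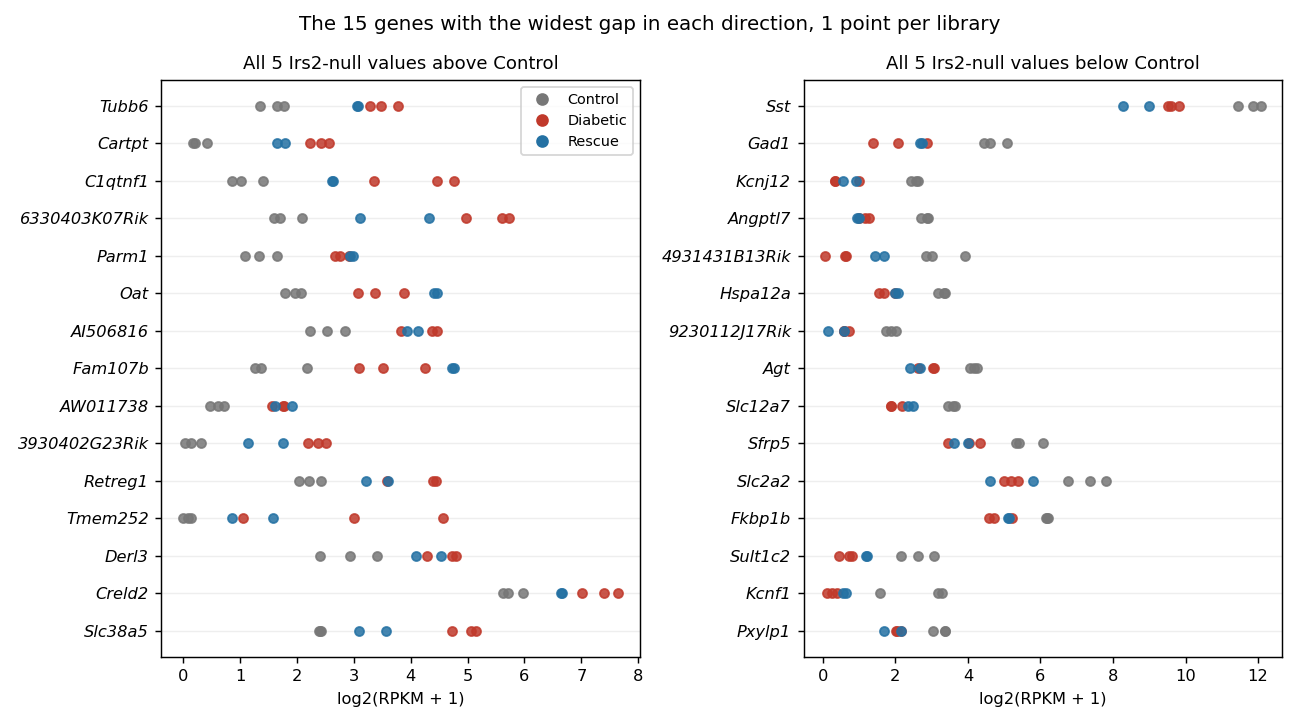
Level of the 15 genes with the widest gap above Control (left) and the 15 with the widest gap below (right), as log2(RPKM + 1), with 1 point per library (3 Control in grey, 3 Diabetic in red, 2 Rescue in blue). By the choice of genes no grey point overlaps a coloured one; the gaps run from 0.66 to 1.28 on the left and from 0.89 to 1.63 on the right.

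Over all tested genes, Rescue against Diabetic called 3022 genes higher, 24.0%, and 730 lower, 5.8%, with a median difference of 0.24. Of the 1141 members below Control, 30 were called higher in Rescue, 39 lower and 1072 neither, and their median difference was −0.02. Of the 612 members above, 242 were called higher in Rescue, 36 lower and 334 neither, with a median of 0.34. The rule keeps only genes whose Rescue and Diabetic values lie on the same side of Control, so the difference between them is partly set by the choice of genes, and a p that misses the threshold does not show that the genotypes are alike. Scaling moved this comparison. The median difference over all genes was 0.04 after median-of-ratios scaling and −0.06 after quantile normalization, and the calls were 2124 higher and 1674 lower with the first and 1817 higher and 2288 lower with the second. Of the same 1141 members below, 142 and 254 were then called between the null genotypes, against 69 with the deposited values. The median-of-ratios values also gave a more even split of members, with 825 above Control and 947 below.

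**Figure D2:**
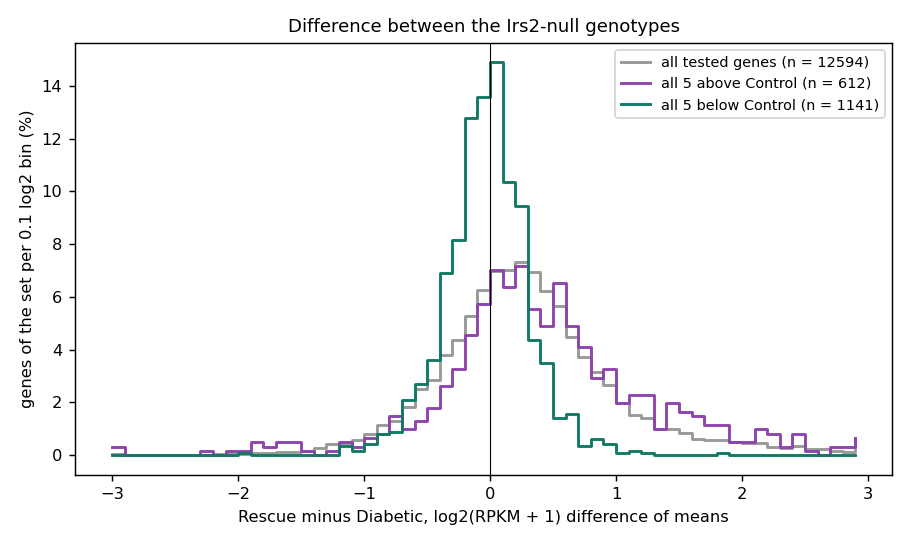
Distribution of the Rescue minus Diabetic difference in mean log2(RPKM + 1) for all 12594 tested genes (grey), the 612 members above Control (purple) and the 1141 below (green), as the percent of each set per bin of 0.1, with values past 3 put in the end bins. The green distribution is the narrowest and is centred near 0 (median −0.02), while the purple one has a median of 0.34 beside 0.24 for all genes.

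Of 48 tested genes of insulin secretion and β cell maturity, 36 had a negative difference and 12 a positive one. Of the 48, 15 lay below Control in all 5 libraries (31.2%, beside 9.06% of all genes) and 0 above, with a median difference of −0.37 beside −0.05 over all genes. Set against Control, the median of the 48 was −0.32 in Diabetic and −0.52 in Rescue. Only *Slc2a2* passed limma's adjusted threshold. The others among the widest gaps act at successive steps of secretion. *Hadh*, a mitochondrial dehydrogenase of fat oxidation that restrains glutamate dehydrogenase, was 162, 185 and 193 RPKM in Control, 51.2, 59.5 and 83.6 in Diabetic and 75.1 and 97.5 in Rescue (limma adjusted p = 0.0593). *Pcx*, pyruvate carboxylase, was 37.0 to 39.0 RPKM in Control and 10.9 to 24.0 without *Irs2*. *Kcnj11*, the pore of the ATP-sensitive potassium channel, was 53.9 to 59.3 against 27.1 to 39.97. None of these values overlapped, and limma's adjusted p was 0.0973 for *Pcx* and 0.086 for *Kcnj11*.
*Slc30a8*, the granule zinc transporter, was 496 to 570 RPKM in Control, 153 to 291 in Diabetic and 142 and 346 in Rescue. *Sytl4*, a granule docking protein also called granuphilin, was 101 to 111 against 23.03 to 73.2. For both, the spread among the *Irs2*-null libraries was wide and the Control values close together. *G6pc2*, the islet glucose-6-phosphatase, *Ucn3*, a marker of mature β cells, and *Glp1r*, the incretin receptor, were also members. Insulin was not: *Ins1* was 58510 to 69630 RPKM in Control and 36580 to 84400 in the *Irs2*-null libraries, and *Ins2* and *Mafa* overlapped too.
Of 23 β cell transcription factors, 3 lay below (13.0%, beside 9.06% of all genes, and 1 after median-of-ratios scaling). These were *Foxa2* (34.3 to 50.7 RPKM in Control, 24.9 to 27.6 without *Irs2*), *Tshz1* and, by a margin of 0.01 on the log2 scale, *Neurod1*. Above lay 1, *Bach2* (4.35%, beside 4.86% of all genes). *Bach2* was 0.191 to 0.331 RPKM in Control, 0.486 to 1.91 in Diabetic and 5.36 and 3.65 in Rescue. It was highest in Rescue, as the lymphocyte markers were. The part of lymphocytes in the *Bach2* values was not tested. *Pdx1* overlapped with Control. Of the 23 differences 21 were negative and 2 positive, with a median of −0.39 beside −0.05 over all genes. Set against Control, the median of the 23 was −0.36 in Diabetic and −0.49 in Rescue.

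Lymphocyte markers differed among these libraries as well. In Diabetic 3, whose lymphocyte level was −1.57 on the centred log2 scale, as low as Control 4 at −1.52, the mean of the secretion list was 0.00, beside 0.22 to 0.32 in Control. The secretion list was at −0.07 and −0.14 in Diabetic 1 and 2 and at −0.48 and −0.14 in Rescue 1 and 2. The part of other cell types in the secretion values was not tested. With the Diabetic libraries alone, 17 of the 48 lay below Control and 10 above, where 21.5% and 10.2% of all genes did.

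Cytosolic ribosomal protein genes were the most uniform group above Control. Of 75 tested, 68 were members above (90.7%, beside 4.86% of all genes) and 0 below, and all 75 had a positive difference, with a median of 0.67. No single one passed the adjusted threshold of limma. Set against Control, the median was 0.44 in Diabetic and 1.06 in Rescue. Between the null genotypes 53 of the 75 were called, beside 3752 of all 12594 genes, a comparison that moved with scaling. *Rplp0*, of the ribosomal stalk, had the widest gap, with 306, 274 and 308 RPKM in Control, 571, 621 and 451 in Diabetic and 617 and 524 in Rescue (log2 difference 0.90, SE 0.16, limma adjusted p = 0.0738). *Rps20*, of the small subunit, was 28.1 to 29.9 in Control, 41.4 to 46.2 in Diabetic and 61.6 to 90.6 in Rescue. For *Rplp0* Rescue minus Diabetic was 0.07 (interval −0.33 to 0.47), while *Rps20* was called higher in Rescue.
The list mean of each library was −0.38, −0.49 and −0.41 in Control, 0.12, 0.02 and −0.13 in Diabetic and 0.85 and 0.41 in Rescue. Diabetic 3, with lymphocyte markers at the Control level, had the lowest ribosomal mean of the null libraries, at a value above all 3 Control libraries. The part of other cell types in the ribosomal values was not tested. With Diabetic libraries alone 68 of 75 again lay above. After median-of-ratios scaling there were 72 and after quantile normalization 54. Many of these genes have near-identical processed copies, so that the assignment of reads among them is uncertain. Mitochondrial ribosomal protein genes did not share the pattern in the counts, with 3 of 74 above (4.05%) and 0 below.

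**Figure D3:**
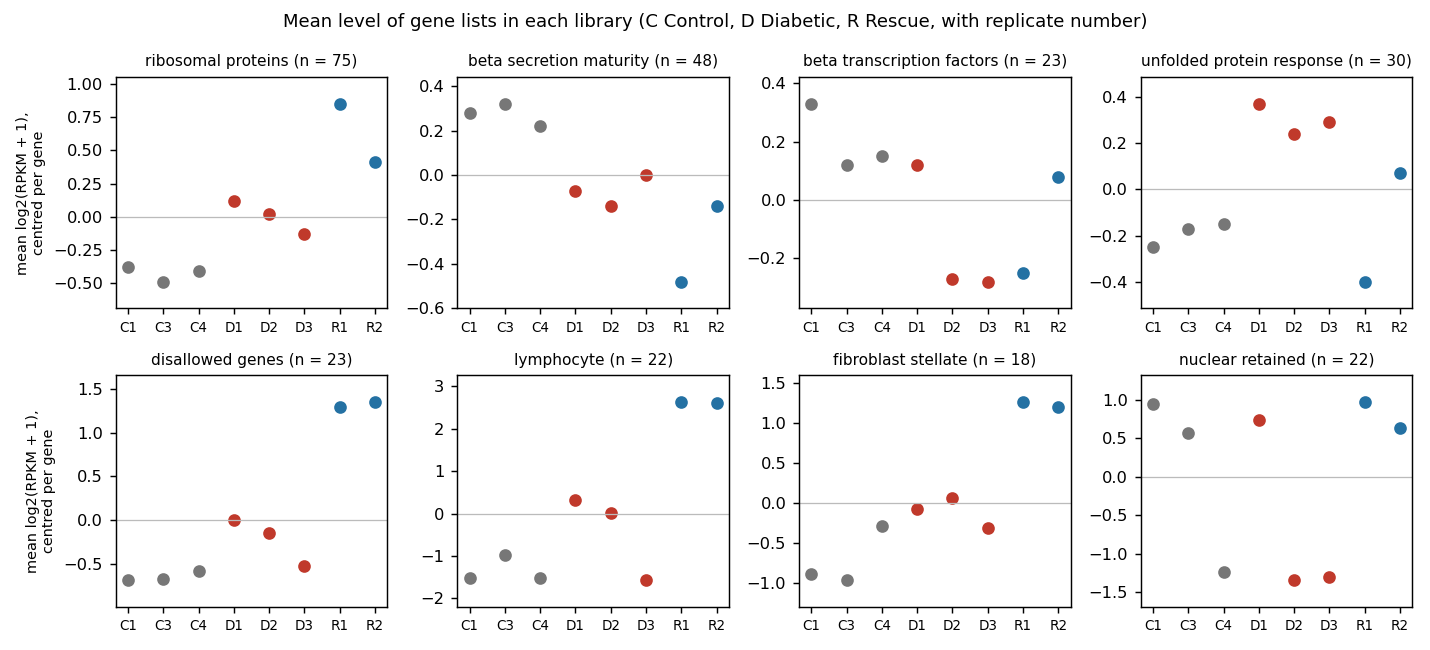
Mean log2(RPKM + 1) of 8 gene lists in each library, each gene centred over the 8 libraries, with 1 point per library (Control grey, Diabetic red, Rescue blue; C1 is Control 1). The ribosomal list separates Control (−0.49 to −0.38) from all null libraries (−0.13 to 0.85) and the secretion list does so downward (0.22 to 0.32 against −0.48 to 0.00), while the lymphocyte and nuclear-retained lists do not divide the libraries by the presence of *Irs2*.

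Genes that serve protein folding in the endoplasmic reticulum (ER) were among the members above Control, most with their highest values in Diabetic. Of 30 unfolded protein response genes 8 lay above Control (26.7%, beside 4.86% of all genes) and 0 below. *Creld2*, a chaperone induced by ER stress, was 62.0, 51.4 and 48.5 RPKM in Control, 167, 200 and 128 in Diabetic and 99.3 and 99.7 in Rescue. *Derl3*, of ER-associated degradation, was 4.29 to 9.57, then 18.5 to 26.7, then 16.0 to 22.1. *Edem1*, *Manf*, *Pdia4*, *Dnajb11*, *Hsp90b1* and *Sdf2l1* were the others. Set against Control, the list median was 0.62 in Diabetic and 0.01 in Rescue, and Rescue minus Diabetic had a median of −0.47. With the Diabetic libraries alone 19 of the 30 lay above (63.3%, beside 10.2% of all genes) and 1 below. After quantile normalization of all 8 libraries 5 lay above and 1 below. N-linked glycosylation genes went from 4 of 28 above in the full set (14.3%, beside 4.86% of all genes) to 21 of 28 with Diabetic alone (75.0%, beside 10.2%). *Retreg1*, a receptor for the autophagy of ER, was 3.11 to 4.33 RPKM in Control and 8.27 to 20.9 in the null libraries.

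β cell disallowed genes, which are kept low in mature β cells and expressed in most other tissues, were all higher on average. All 23 tested had a positive difference, as did 5563 of all 12594 genes. Of the 23, 6 were members above Control (26.1%, beside 4.86% of all genes). Set against Control, the list median was 0.35 in Diabetic and 1.87 in Rescue. *Oat*, ornithine aminotransferase, was 2.92, 3.22 and 2.44 RPKM in Control, 13.7, 9.33 and 7.37 in Diabetic and 21.0 and 20.3 in Rescue. *Ldha*, lactate dehydrogenase, was 2.16 to 2.42, then 3.60 to 8.06, then 33.9 to 38.0, and *Cxcl12* was 0.537 to 0.664, then 0.801 to 3.93, then 16.5 to 17.02. *Ldha* and *Cxcl12* were highest in the libraries with the most lymphocyte markers, and Diabetic 3 was the nearest to Control for each of *Oat*, *Ldha* and *Cxcl12*. The part of other cell types in these values was not tested. Of 14 dedifferentiation markers, *Aldh1a3* and *Gast* lay above (14.3%, beside 4.86% of all genes). The endocrine progenitor factor *Neurog3* lay below (7.14%, beside 9.06% of all genes). *Aldh1a3* was 0.407 to 1.71 RPKM in Control, 7.78 to 22.7 in Diabetic and 1.93 and 4.16 in Rescue. For this gene Rescue 1 passed the highest Control by little, and Rescue minus Diabetic was −2.05 (limma adjusted p = 0.0125). *Gast* was 0.170 to 1.22 RPKM in Control, 22.5 to 159 in Diabetic and 5.39 and 1.79 in Rescue. Its Rescue minus Diabetic difference was −4.19 (limma adjusted p = 0.00528).

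Markers of vessels and of fibroblasts had members above Control and 0 below. Of 12 endothelial genes 4 were above (33.3%, beside 4.86% of all genes), with *Cdh5* and *Pecam1* (junction proteins) at 6.90 to 9.44 and 7.81 to 10.3 RPKM in Control and 12.3 to 20.6 and 12.7 to 29.0 without *Irs2*. Fibroblast and stellate cell markers gave 5 of 18 above (27.8%), among them *Thy1*, at 0.464 to 0.733 RPKM in Control, 1.64 to 2.70 in Diabetic and 21.4 to 21.7 in Rescue. The others were *Rgs5*, *Sparc*, *Pdgfrb* and *Dcn*. *Thy1* was highest in Rescue, as the lymphocyte markers were. The part of lymphocytes in the *Thy1* values was not tested. Of 22 lymphocyte markers *Cd8b1*, and of 14 macrophage markers *C1qa*, were the members, shares of 4.55% and 7.14% that are near the background, and all 22 and all 14 differences were positive. Acinar and ductal lists held 0 members in either direction. The summed RPKM of the 20 acinar markers ranged from 213 to 297 in Control and from 93.6 to 846 in the *Irs2*-null libraries.

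Endocrine cells other than β cells gave members below Control. *Ppy*, pancreatic polypeptide, was 4677, 3907 and 3510 RPKM in Control, 1982, 761 and 1228 in Diabetic and 267 and 380 in Rescue. Its limma adjusted p was 0.133, and Rescue minus Diabetic was −1.94 (interval −2.78 to −1.11, limma adjusted p = 0.00627). *Pyy* was 1205 to 1399, then 693 to 1096, then 349 to 416 RPKM. Both peptides were lowest in Rescue, as *Sst* was. *Ghsr*, the ghrelin receptor of δ cells, was 0.761 to 1.26 RPKM in Control and at most 0.334 without *Irs2*, but the δ cell factor *Hhex* overlapped (4.94 to 5.64 in Control and 1.67 to 6.92). *Gcg*, glucagon, overlapped at 11150 to 16920 RPKM in Control and 5759 to 23090 in the null libraries. So for δ cells the markers did not all move together.

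In the insulin and IGF signalling route itself, 9 of 40 tested genes lay below Control (22.5%, beside 9.06% of all genes). Above lay 2 (5.0%, beside 4.86%). *Irs1*, the related adaptor, was 1.73, 2.09 and 1.67 RPKM in Control, 1.12, 1.04 and 1.05 in Diabetic and 0.804 and 1.51 in Rescue (log2 difference −0.43, SE 0.17, limma adjusted p = 0.277). *Foxo6*, *Grb10*, which inhibits the insulin receptor, *Tsc1*, *Akt1* and *Gsk3b* were also below. Above were *Igf1r*, the IGF1 receptor, at 5.70 to 6.18 RPKM in Control, 8.82 to 14.2 in Diabetic and 7.15 and 7.21 in Rescue, and *Igfbp3*, an IGF binding protein, at 31.8 to 45.4 against 62.7 to 93.6. None of the 40 passed the adjusted threshold of limma, and 14 of the 40 differences were positive and 26 negative. With the Diabetic libraries alone 18 of the 40 lay below (45.0%, beside 21.5% of all genes) and 3 above. *Insr* and *Foxo1* overlapped with Control.

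Of genes taken as FOXO targets 0 of 26 lay above Control, beside 4.86% of all genes, and 1 below (3.85%, beside 9.06%). This was *Sod2*, a mitochondrial superoxide dismutase (18.7 to 21.4 RPKM in Control, 11.9 to 16.9 without *Irs2*). Promoter letters gave no higher share among members. A 300-base RefSeq promoter was found for 10000 of the 12594 tested genes, 456 members above and 911 below. The FOXO motif GTAAACA, on either strand, was in 1.97% of those above, 2.2% of those below and 2.51% of all. The insulin response sequence was in 1.1%, 1.54% and 1.73%, the cAMP response element in 3.07%, 3.07% and 3.28%, and the E-box in 7.24%, 9.11% and 10.2%. The cAMP response element printed above for *Sst* and *Cartpt* was thus in a gene that fell and a gene that rose. A match is a description of letters and not a bound site.

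Other lists held members in smaller numbers. Circadian genes gave 5 of 18 below (27.8%, beside 9.06% of all genes) and 1 above, *Cry1* (5.56%, beside 4.86%). *Tef*, among those below, was 11.1 to 11.4 RPKM in Control and 2.27 to 8.83 without *Irs2*. Potassium and calcium channel genes gave 6 of 28 below (21.4%, and 2 after median-of-ratios scaling) and 1 above, *Scn3a*, by a gap of 0.03. Among those below was the ER calcium pump *Atp2a2*, at 225 to 351 RPKM against 86.3 to 191. Axon guidance and adhesion genes gave 5 of 16 below (31.2%), and 3 after median-of-ratios scaling and 3 after quantile normalization. Among them were the receptor phosphatase *Ptprf*, at 43.2 to 51.4 against 20.5 to 29.8, and the SLIT receptors *Robo1* and *Robo2*. Antioxidant genes went both ways: *Nqo1*, a quinone reductase, was 3.13 to 6.78 RPKM in Control and 0.699 to 1.86 without *Irs2*, and *Gstp1*, a glutathione transferase, 33.9 to 38.0 against 44.6 to 82.3. *Khk*, ketohexokinase, was 10.2 to 11.5 RPKM in Control, 2.48 to 3.95 in Diabetic and 5.79 and 8.02 in Rescue. For *Khk*, Rescue minus Diabetic was 0.90 (limma adjusted p = 0.0115). No member of these lists passed the adjusted threshold of limma for the *Irs2*-null set against Control. S phase and mitosis genes gave 3 of 28 above (10.7%, beside 4.86% of all genes), all highest in Rescue. *Rrm2* was 2.26 to 2.46, then 3.76 to 4.63, then 11.4 and 18.2 RPKM.

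**Figure D4:**
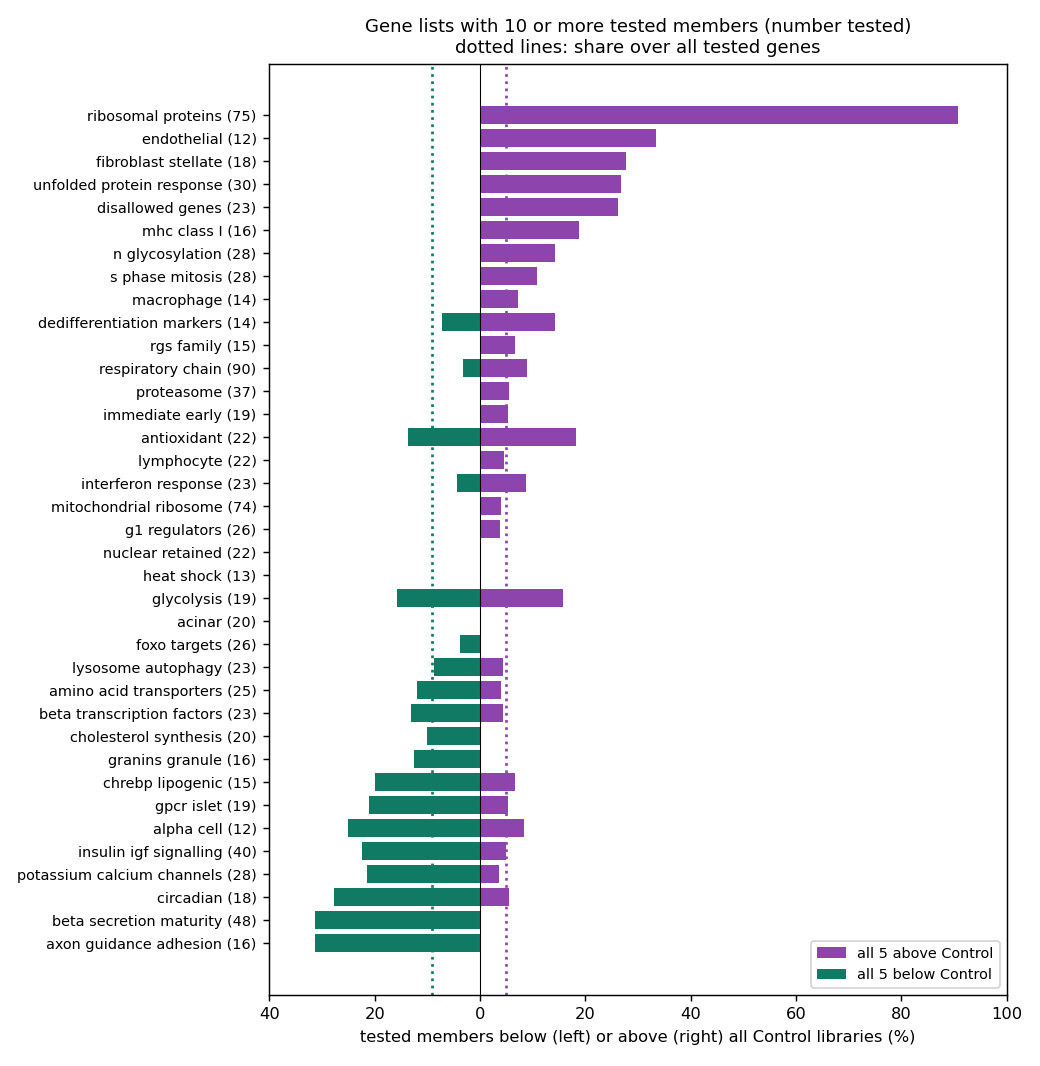
Percent of the tested members of each gene list that lay above (purple, right) or below (green, left) all 3 Control libraries in all 5 *Irs2*-null libraries, for lists with at least 10 tested members, with the number tested in parentheses. Dotted lines mark the shares over all tested genes, 4.86% above and 9.06% below; the ribosomal list stands out at 90.7% above, and the secretion and axon guidance lists reach 31.2% below, the latter with 3 of 16 genes after either other scaling.

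By kind of transcript, long intergenic RNAs were more often below Control (20 of 87) than protein-coding genes (1092 of 12138, 9.0%), a difference that was not tested, with 4 of 87 above. Such RNAs are often nuclear, and the nuclear-retained list, which split the libraries within genotypes, gave 0 of 22 in either direction. The mean level of that list ran from −1.23 to 0.95 among the Control libraries alone, so its genes could hardly lie apart from Control. Its count therefore says nothing about the long intergenic RNAs, and the part of nuclear retention in their values was not tested.

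The null line is of mixed strain origin, and genes next to the targeted locus are inherited with it. Within 10 Mb of the start of *Irs2* on chromosome 8, 69 other genes were tested. Of these, 5 lay above Control (7.25%, beside 4.86% of all genes) and 2 below (2.9%, beside 9.06%). Limma called 0 of them, with 14 at an unadjusted p under 0.05. Within 5 Mb it was 5 above and 1 below of 40. The nearest gene downstream, *3930402G23Rik* (10924427 to 10928696, 0.06 Mb from *Irs2*), was 0.0996, 0.236 and 0.0211 RPKM in Control, 3.57, 4.14 and 4.67 in Diabetic and 1.19 and 2.36 in Rescue. It was near 0 in Control and present in all 5 null libraries (log2 difference 1.83, SE 0.31, limma adjusted p = 0.0617), and its gap was the only one near *Irs2* among the 15 widest. *Efnb2*, a ligand of Eph receptors, *Col4a2*, a basement membrane collagen, *Arhgef10* and *Tmem255b* lay above by gaps of 0.25, 0.16, 0.17 and 0.02, and *Zfp358* and *Fbxo25* below. The part of sequence inherited with the null allele in these values was not tested.

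**Figure D5:**
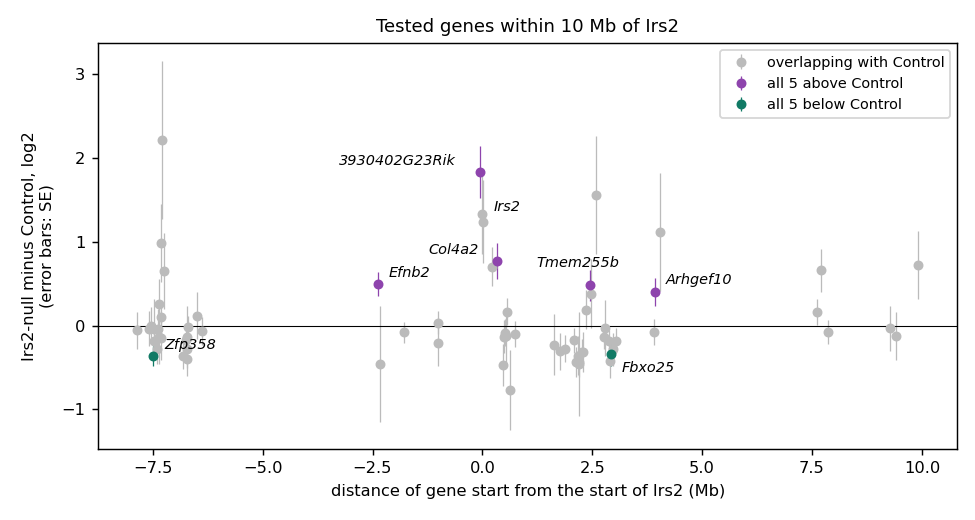
Difference of the *Irs2*-null from the Control libraries on the log2(RPKM + 1) scale for the tested genes within 10 Mb of *Irs2*, against the distance of their start from that of *Irs2*, with SE from limma as bars. The 5 genes above Control (purple) include *3930402G23Rik* at 1.83, next to *Irs2* at 1.33, and the 2 below (green) are *Zfp358* and *Fbxo25*.

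The edge of the rule was narrow for many members. The gap between the nearest *Irs2*-null and Control values was under 0.1 on the log2 scale in 248 of the 612 above and 466 of the 1141 below, and at least 0.5 in 31 and 76. Just inside lay *Zeb2*, with 0.332 RPKM in Control 1 and 0.332 in Diabetic 3, and *Dusp28*, with 11.4 in both Control 3 and Diabetic 2. Just outside were *Apol7c*, at 0 in Control and in Diabetic 3, and *Mir7026*, at 0 in Control 4 and all 5 null libraries. Leaving out Diabetic 3 raised the count above to 1529, and leaving out Control 4 raised the count below to 1801.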

How the data were processed

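RNA of 8 islet libraries was analysed, 3 Control, 3 Diabetic and 2 Rescue, grouped by GEO's labels. The authors aligned paired-end reads with STAR to mm10, counted genes with HTSeq and used edgeR, per the labels and the paper's methods, and deposited RPKM values for 24123 genes, with tool versions not given in the sources used here. No count model was fitted, since the deposited unit is RPKM. The values of 100% of the 18126 genes above 0 were whole multiples of a step within 0.001 reads, which gave the depth and the reads for an alternative limma-voom fit.

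Those reaching 1 RPKM in 2 or more libraries (12594) were fitted on log2(RPKM + 1) with limma 3.58.1 in R 4.3.3, with a trend and 2-sided tests, and p-values were adjusted across the 12594 genes by Benjamini-Hochberg. A gene is called at an adjusted p under 0.05. The first fit had a mean for Control and a mean for the 5 *Irs2*-null libraries, and Rescue minus Diabetic came from a fit with 3 genotype means. Intervals are 95% intervals of limma. The 2 comparisons of Diabetic and of Rescue with Control share the Control libraries and are given side by side only. Lists are described by counts and medians, with no test. Named genes are the targeted loci, the 15 widest gaps in each direction, members within 10 Mb of *Irs2*, and up to 6 members per list in order of gap. Called genes, a few markers that overlap with Control, and further list members were named after their values were seen. The members, the 45 lists and the 18 alternatives were chosen with earlier results of these data known. Coordinates are from GENCODE M21 (GRCm38) and promoters from RefSeq (GRCm38.p6, the most upstream start of each gene). Some genes are not reported here. The functions were tested on simulated data. Figures were drawn with matplotlib in python.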

Additional observations from a re-analysis of the deposited data

Results flagged for a closer look

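Among 35 genes (the 15 widest gaps in each direction and the other called genes), the 5 *Irs2*-null values were examined for a single library far from the rest, by the gap to its neighbour as a share of the range (critical value 0.71 for 5 values). By chance about 1 in 20 groups would be marked. In 2 of the 35 a library stood apart. *9230112J17Rik* was 0.101 RPKM in Rescue 2 and 0.494 to 0.651 in the other 4, and *Ggact*, an enzyme that breaks down γ-glutamylamines, was 12.5 RPKM in Diabetic 1 and 14.4 to 15.1 in the other 4. Both libraries lay farther from Control than the others, and for *Ggact* the Control values were 24.6 to 26.3.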

How the results depend on the processing

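The called counts were 5 higher and 17 lower. They became 8 and 40 with no filter, 1 and 5 with median-of-ratios scaling, 1625 and 676 with 3 genotype means, 14 and 63 with the nuclear-retained covariate, 10 higher with the lymphocyte covariate, 2 and 29 with limma-voom on recovered reads, and 298 and 465 without both Rescue libraries, which was added after the data were seen. With a replicate block limma called 0 and 0, and 95 and 356 genes had an unadjusted p under 0.05. Correlations of same-numbered libraries, in deviations from their genotype means, ran from −0.26 to 0.37. With 2 or 3 libraries per genotype these deviations are tied to each other. The check therefore cannot tell whether the numbers pair the samples. Leaving out 1 library gave 0 to 16 higher and 0 to 32 lower, with 16 higher without Diabetic 3 or Rescue 1. The 22 called genes kept their sign in all 411 fits, and their adjusted p without 1 library ran from 0.0149 to 0.287. Members numbered 316 above and 712 below at a mean RPKM of at least 5, 1290 and 2702 without both Rescue libraries, and 674 to 1529 and 1183 to 1801 without 1 library. Of the members above, 403 stayed members under both scalings, and of those below 623. Members called higher in Rescue than in Diabetic numbered 272, and 161 to 918 without 1 library (161 without Rescue 1, 918 without Diabetic 3). Those called lower numbered 75, 164 after quantile normalization, and 23 to 234 without 1 library (23 without Diabetic 2, 28 without Rescue 1, 234 without Rescue 2). Within 20 Mb of *Irs2* 7 of 119 genes lay above Control (5.88%, beside 4.86% of all genes) and 8 below (6.72%, beside 9.06%). The causes of these shifts were not tested.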

Other observations

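Granule genes lay mostly above Control in the Diabetic libraries. Of 16 granin and granule genes, 13 lay above Control in all 3 Diabetic libraries (81.2%, beside 10.2% of all genes) and 2 below, and with the Rescue libraries added 0 lay above and 2 below, *Resp18* and *Cadps*. *Chgb*, a granin of the secretory granule, was 605 to 684 RPKM in Control, 1271 to 4674 in Diabetic and 396 and 646 in Rescue (Rescue minus Diabetic −2.39, limma adjusted p = 0.00781). For *Chgb*, Rescue 1 lay below the Control values and Rescue 2 among them.

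Antigen presentation had its highest values in Rescue. Of 16 class I genes 3 lay above Control in all 5 *Irs2*-null libraries (18.8%, beside 4.86% of all genes). All 16 differences were positive. *B2m*, the light chain of class I molecules, was 64.2 to 92.0 RPKM in Control, 211, 218 and 80.4 in Diabetic and 762 and 853 in Rescue. Diabetic 3 was among the Control libraries for *B2m*, as it was for the lymphocyte markers. The part of other cell types in these values was not tested.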
